A study of Homo sapiens with 3 samples.

Results

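MicroRNA genes at promoter-class peaks are the peaks that the authors assigned to the promoter class and that carry a gene symbol starting with MIR and a digit, or with MIRLET, each position counted once. The rule found 66 Flag-USP39 peaks and 168 POLR2A peaks, 234 in all, of 11565 and 14027 peaks. They carry 216 symbols, 4 of which end in HG and name a host transcript (MIR205HG, MIR663AHG, MIR99AHG and MIR210HG). The members were chosen by the called peaks themselves, so their number, tags and fold enrichments are descriptions without a test.

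Chromatin immunoprecipitation with sequencing was made in A2780, an ovarian cancer cell line that the labels call serous. One library was precipitated with an anti-Flag antibody from A2780 cells with Flag-USP39, a tagged splicing factor of the tri-snRNP. Another used an anti-POLR2A antibody, against the catalytic subunit of RNA polymerase II, as the positive control, and the third was the input, from 10% of the genomic DNA. Each group is 1 library, both antibodies were set against the same input, and the labels give no treatment, no clone and no cells without the tag, so signal that an anti-Flag antibody gives without the tag cannot be told apart from signal of USP39.

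A microRNA is a short RNA that guides Argonaute proteins to messenger RNAs, mainly by pairing of its seed, bases 2 to 8. Most microRNA genes are transcribed by RNA polymerase II as a long primary transcript or as part of the intron of a host gene. The Microprocessor, DROSHA with DGCR8, cuts the hairpin out of that transcript in the nucleus, often while splicing goes on, and DICER1 trims it in the cytoplasm. The annotated start of a microRNA gene in these tables is the 5′ end of the hairpin, not the start of the primary transcript. A promoter-class peak at such a gene is therefore a peak near a hairpin, and for a hairpin in an intron it can lie deep inside the host gene.

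The mature sequences below are those of the loci on which the account turns, from RefSeq (assembly GRCh38.p14), printed 5′ to 3′ with the seed in capitals. Of the 216 symbols, 211 were found in the RefSeq gene table and 84.7% had a mature sequence. The first group comes from loci with many tags of both antibodies, the second from the DDX5 and MIR205HG transcripts, the third from the POLR2A-only DNM3OS transcript and MIR21, and the last shares the let-7 seed.
hsa-miR-3648: aGCCGCGGggaucgccgaggg
hsa-miR-663a: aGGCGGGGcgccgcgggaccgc
hsa-miR-6766-5p: cGGGUGGGagcagaucuuauugag
hsa-miR-6766-3p: uGAUUGUCuucccccacccuca
hsa-miR-3064-5p: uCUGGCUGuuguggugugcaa
hsa-miR-5047: uUGCAGCUgcgguuguaaggu
hsa-miR-205-5p: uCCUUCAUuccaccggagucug
hsa-miR-199a-5p: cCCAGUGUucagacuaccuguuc
hsa-miR-199a-3p: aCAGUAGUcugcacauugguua
hsa-miR-214-3p: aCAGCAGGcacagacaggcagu
hsa-miR-21-5p: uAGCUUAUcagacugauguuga
hsa-let-7f-5p: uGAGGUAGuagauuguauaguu
hsa-miR-98-5p: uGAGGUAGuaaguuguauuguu
hsa-let-7i-5p: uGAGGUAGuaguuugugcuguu

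Seeds were rarely shared among the members. The 249 mature names held 237 distinct seeds, and 10 seeds were shared by 22 of the names. The let-7 seed GAGGUAG was the seed of let-7f-5p and miR-98-5p, whose genes had a Flag-USP39 peak, and of let-7i-5p, whose gene had a POLR2A peak. The seed GGCGGGG of miR-663a is also that of miR-1908-5p and miR-6787-5p, and both of those genes had a POLR2A peak of 4 or 5 tags. The seed of miR-5047 is that of miR-1301-3p, and the seed of miR-214-3p is that of miR-3619-5p.

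MicroRNA peaks made up 66 of 669 Flag-USP39 promoter-class peaks, 9.87% (95% Wilson interval 7.83 to 12.4), and 168 of 2509 POLR2A promoter-class peaks, 6.70% (5.78 to 7.74). The Flag-USP39 peaks belong to 80 symbols and the POLR2A peaks to 166. Both lists held 30 of the symbols, the Flag-USP39 list alone 50 and the POLR2A list alone 136. This split was not counted over all promoter-class symbols, and the lists differ in size, so it describes no trait of microRNA genes. Of the 1913 microRNA genes in the RefSeq table, 73 (3.82%) had a Flag-USP39 promoter-class peak and 158 (8.26%) a POLR2A one. For the 20052 protein-coding genes of that table the shares were 2.31% and 10.3%. In the microRNA shares a peak counted for every symbol on it, and symbols missing from the RefSeq table were left out. Intervals cover counting error only, and the authors' thresholds differed, at a p-value of 1e-05 for Flag-USP39 and 1e-04 for POLR2A.

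Most of these peaks rest on few tags. The median was 4 tags for Flag-USP39, with a range of 3 to 241, and 5 for POLR2A, with a range of 4 to 192. These medians equal those of all promoter-class peaks of each list. At most 5 tags were found in 42 of 66 Flag-USP39 peaks (63.6%), beside 76.2% of all promoter-class peaks of that list. In the POLR2A list 97 of 168 (57.7%) held so few, beside 65.6%. Low counts were thus common in the whole lists. At the other end, 14 Flag-USP39 peaks (21.2%) held 10 or more tags, beside 9.72% of all promoter-class peaks. In the POLR2A list 36 (21.4%) did, beside 9.21%. The 5 microRNA peaks with the most tags took 58.6% of the 846 tags in Flag-USP39 microRNA peaks and 29.8% of the 1825 tags in POLR2A ones.

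**Figure D1:**
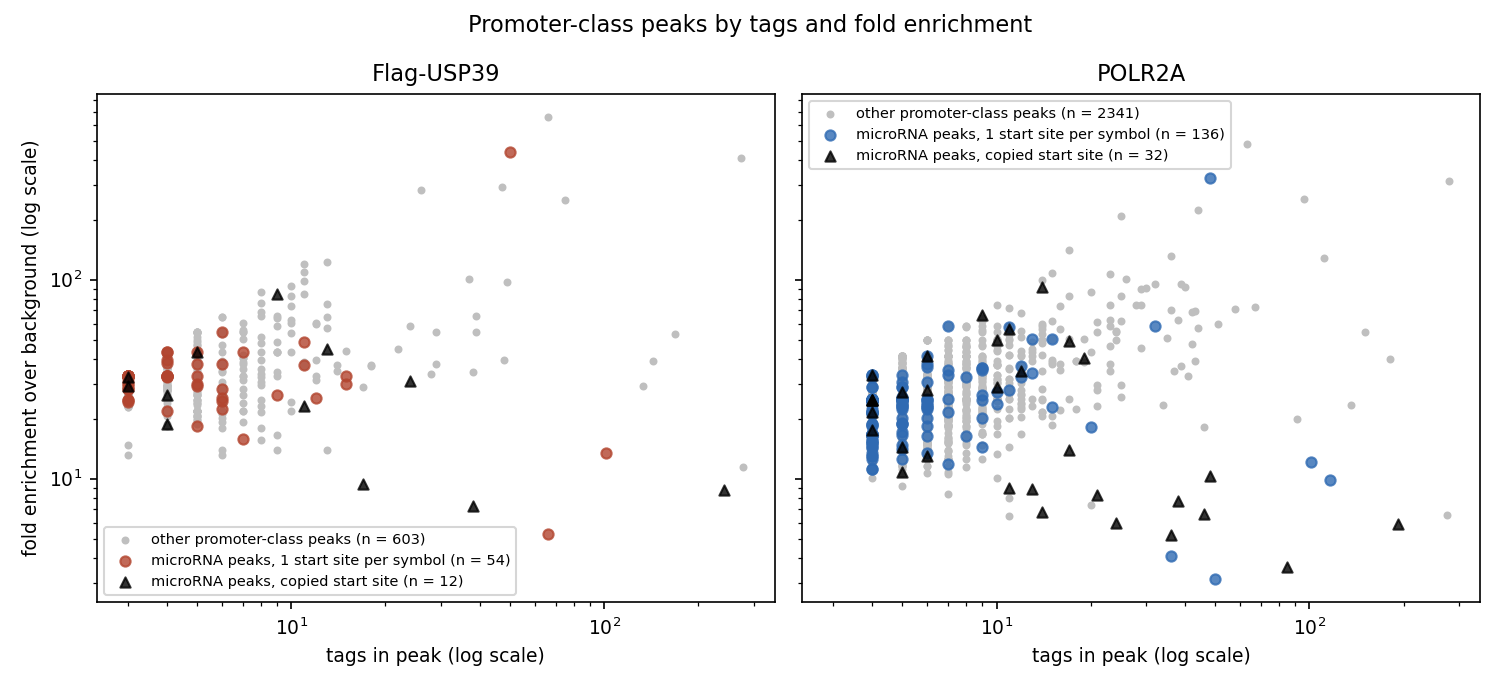
Tags per peak (x axis, log scale) against the authors' fold enrichment over background (y axis, log scale) for promoter-class peaks of Flag-USP39 (left) and POLR2A (right). Grey points are other promoter-class peaks, coloured circles microRNA peaks whose symbols have 1 start site, and black triangles microRNA peaks at copied start sites; the microRNA peaks with many tags lie mostly at low fold, with MIR6766 at 439.86 and 322.61 as the exception at the top.

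The peaks with many tags mostly had low fold enrichments, which are the authors' ratio of a peak to its local background. The 6 Flag-USP39 microRNA peaks with 20 or more tags had a median fold of 11.1, against a median of 32.7 for all promoter-class peaks of that list. For the 15 POLR2A peaks of that depth the medians were 7.76 and 24.9. The medians over all promoter-class peaks include peaks of any depth. Folds of other promoter-class peaks with 20 or more tags were not summarised, so these comparisons are not matched for depth. The lowest folds of the promoter class were all at microRNA genes: 4 Flag-USP39 microRNA peaks lay below the lowest fold of any other promoter-class peak, 11.5, and 6 POLR2A ones lay below 6.5. The input's own tags at these sites were not analysed here.

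Among the microRNA peaks of each antibody, the highest tag count was at MIR3648 and MIR3687. RefSeq places MIR3648-1 in RNA45SN2, a ribosomal RNA precursor gene, and MIR3648-2 between genes. The Flag-USP39 peak at chr21:9825360-9828184 held 241 tags (95% exact Poisson interval 212 to 273) at a fold of 8.77. Beneath it lay POLR2A peaks of 192 tags (166 to 221), fold 5.94, and 85 tags (67.9 to 105), fold 3.60. The tables write MIR3648-1 with MIR3648-2 and MIR3687-1 with MIR3687-2 at shared start sites, so reads of near-identical copies cannot be assigned to one of them.

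MIR6087 on chromosome X showed the same pattern of many tags and a low fold. It held 101 Flag-USP39 tags (82.3 to 123) at a fold of 13.5 and 116 POLR2A tags (95.9 to 139) at 9.82, and the peaks start at the same base, chrX:108297271. The counting intervals overlap.

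MIR663A and its host MIR663AHG on chromosome 20 had the lowest fold of both promoter lists. The Flag-USP39 peak, chr20:26189705-26190372, held 66 tags (51.0 to 84.0) at a fold of 5.24. The POLR2A peak at the same place held 50 tags (37.1 to 65.9) at 3.12, and a second one, over the hairpin, held 36 tags at 4.10. The related MIR663B on chromosome 2 was a member in the POLR2A list alone, with 101 tags at a fold of 12.2. A Flag-USP39 peak of 92 tags overlaps it but was given to an intron of ANKRD30BL, and so is not a member.

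MIR6766, inside POLG, the catalytic subunit of the mitochondrial DNA polymerase, was the opposite case. The Flag-USP39 peak at chr15:89868204-89868599 held 50 tags (37.1 to 65.9) and the POLR2A peak at chr15:89868228-89868579 held 48 (35.4 to 63.6). Their folds, 439.86 and 322.61, ranked 2 of 669 and 2 of 2509 promoter-class peaks. The centres of the peaks were 2 bp apart and lay 1640 and 1638 bp downstream of the hairpin's 5′ end, so neither peak covers the hairpin.

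MIR7641-2 is one symbol with 19 start sites in the tables. The microRNA peaks lay at 9 of them on chromosome 1 and 1 on chromosome 14. Over the 17350 bp of chr1:228744944-228762293 there were 2 Flag-USP39 peaks, with 38 and 17 tags, and 8 POLR2A peaks, with 11 to 48 tags. The sums were 55 Flag-USP39 and 205 POLR2A tags, with folds of 7.26 and 9.43 for Flag-USP39 and of 5.21 to 10.37 for POLR2A. A further POLR2A peak of 46 tags, at DUSP5P1, and a Flag-USP39 peak of 3 tags on chromosome 14 were also listed under this symbol. The peaks of both antibodies overlap in 3 places.

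**Figure D2:**
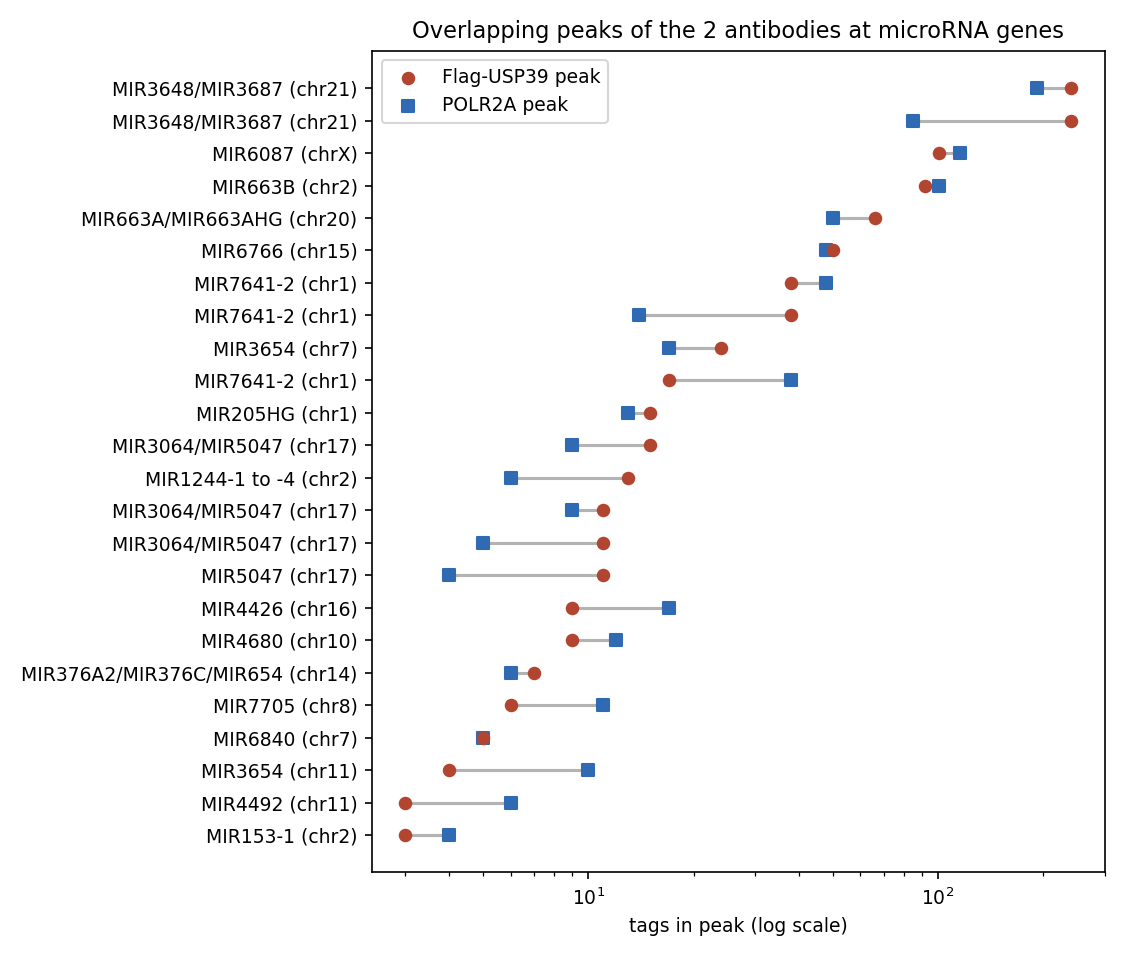
Tags per peak (x axis, log scale) at the 24 overlapping pairs of Flag-USP39 (circles) and POLR2A (squares) peaks at microRNA genes, one pair per line, ordered by Flag-USP39 and POLR2A tags. Flag-USP39 tags were more in 13 pairs, POLR2A tags in 10, and 1 pair was equal. Tags were not scaled for depth, and a peak can stand in more than 1 pair.

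Peaks of the antibodies met at 20 of 66 Flag-USP39 microRNA peaks, 30.3% (20.6 to 42.2), beside 20.2% of all Flag-USP39 promoter-class peaks. In the POLR2A list 22 of 168 met a Flag-USP39 peak, 13.1% (8.81 to 19.0), beside 5.74%. The share moved with tag count in members and other promoter-class peaks alike. Among Flag-USP39 peaks with 10 or more tags, 12 of 14 microRNA peaks and 46 of 51 others overlapped, and among those with at most 5 tags, 4 of 42 and 36 of 468. In the POLR2A list 15 of 36 microRNA peaks and 58 of 195 others with 10 or more tags overlapped, and 3 of 97 and 30 of 1549 with at most 5. Signal below 3 tags for Flag-USP39 or 4 for POLR2A could not be listed, so a missing overlap was not evidence of absent signal.

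The overlap was also counted apart for copied and single start sites. A start site that carries several symbols, or a symbol placed at several sites, applied to 12 Flag-USP39 and 32 POLR2A microRNA peaks. Of these, 7 of 12 (58.3%, 32.0 to 80.7) and 9 of 32 (28.1%, 15.6 to 45.4) overlapped a peak of the other antibody. At symbols with 1 site 13 of 54 (24.1%, 14.6 to 36.9) and 13 of 136 (9.56%, 5.67 to 15.7) did. Over all promoter-class peaks the shares were 20.2% and 5.74%. MIR7641-2 alone gave 9 of the 32 POLR2A peaks, so the peaks are not independent. The intervals overlap in both lists but treat peaks as independent, so they cannot decide whether the shares differ. At least 10 tags were found in 6 of 12 and 19 of 32 copied ones, against 8 of 54 and 17 of 136, beside 9.72% and 9.21% of all promoter-class peaks. The chromosome that RefSeq gives for every matched symbol differed from that of the peak at 2 Flag-USP39 and 4 POLR2A peaks, among them MIR4426 on chromosome 16, with 9 Flag-USP39 and 17 POLR2A tags.

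The remaining overlapping pairs held fewer tags. MIR4680, in PDCD4, an inhibitor of translation initiation, had 9 Flag-USP39 and 12 POLR2A tags. MIR7705, in PABPC1, the cytoplasmic poly(A) binding protein, had 6 and 11. MIR3654 had 24 and 17 on chromosome 7, and 4 and 10 on chromosome 11. The pairs at MIR6840 in the PILRB transcript, MIR4492 at BCL9L and MIR153-1 in PTPRN had 3 to 6 tags in either list. MIR1244-1, MIR1244-2 and MIR1244-4 share 1 mature sequence, and none was found for MIR1244-3. The MIR1244 symbols were placed in PTMA on chromosome 2, where the Flag-USP39 peak held 13 tags and the POLR2A peaks 6 and 19. They also carried a Flag-USP39 peak of 11 tags at the pseudogene PTMAP2 on chromosome 5, where RefSeq lists it within DTWD2.

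Pooled by position, with member centres within 10 kb joined, the 234 peaks formed 181 loci. Both antibodies had a member peak at 22, Flag-USP39 alone at 40 and POLR2A alone at 119. Alone means without a member peak of the other antibody, and peaks of other classes are left aside. By peaks of any class, a centre of the other list lay within 10 kb of 31 of 66 Flag-USP39 and 52 of 168 POLR2A members. Neither the locus counts nor these nearby centres were counted over all promoter-class peaks, so they have no background share. Member peaks of both antibodies overlapped at 17 of the 22 loci. At the other 5 they lay side by side without meeting, among them MIR6501, in the gene of the splicing protein SON, with 7 Flag-USP39 and 6 POLR2A tags; MIR7-1, in HNRNPK, with 3 and 7; MIR6077, with 3 and 11; and MIR6748 with MIR6514, with 3 and 6. This holds for member peaks only. Under MIR7-1, upstream-class peaks of 4 Flag-USP39 and 7 POLR2A tags, which are not members, did overlap. Of the 181 loci, 30 carried 2 or more symbols, 7 of them with both antibodies, 7 with Flag-USP39 alone and 16 with POLR2A alone.

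**Figure D3:**
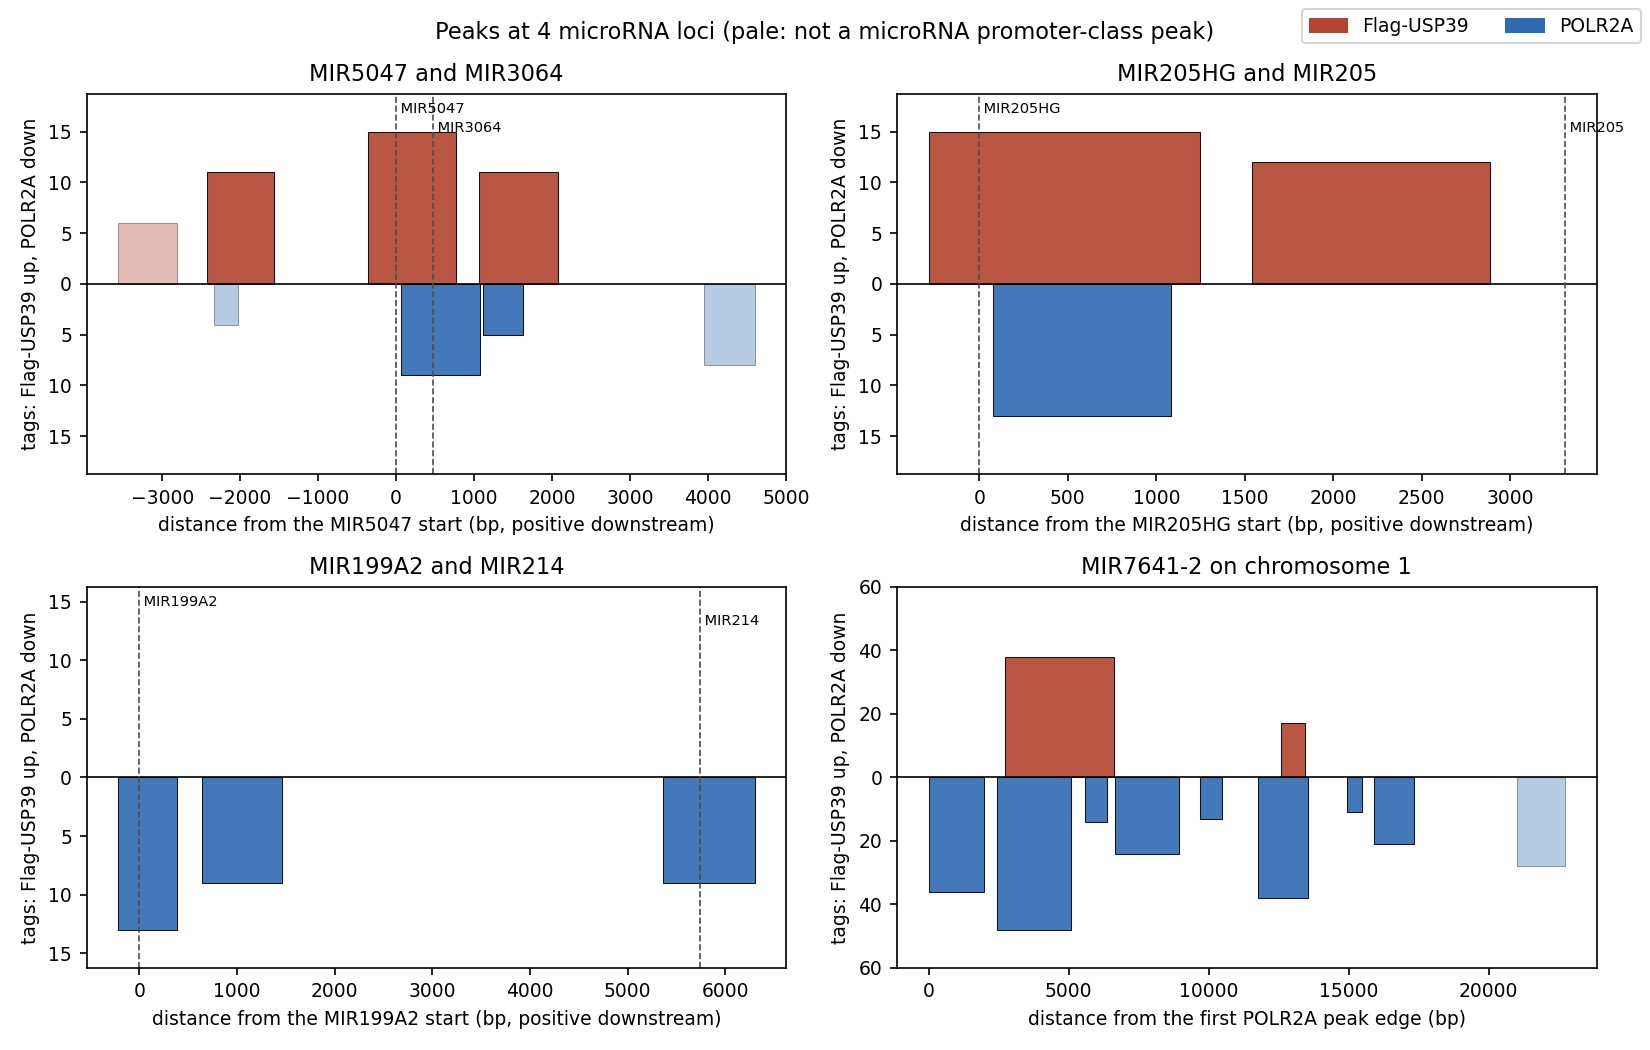
Peaks at 4 loci by distance in bp (x axis) from the MIR5047 start, the MIR205HG start, the MIR199A2 start and the first POLR2A peak edge at MIR7641-2. Bars have the width of the peak and the height of its tags, with Flag-USP39 up and POLR2A down, and pale bars are peaks that are no microRNA promoter-class peak. Flag-USP39 has 3 member peaks at MIR5047 and MIR3064 and none at MIR199A2 and MIR214.

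DDX5 gave the densest set of Flag-USP39 peaks at a host gene. This RNA helicase, itself a Microprocessor partner, carries MIR3064 and MIR5047 within its span. Flag-USP39 peaks of 11, 15 and 11 tags lay at chr17:62495352-62496364, chr17:62496658-62497789 and chr17:62499002-62499857, with folds of 48.9, 29.99 and 37.1. POLR2A peaks of 5 and 9 tags met the first and second, and one of 4 tags, given the upstream class, met the third. All Flag-USP39 counts there, not scaled for depth, were above the POLR2A ones that they met. At these counts the Poisson intervals overlap: 8.40 to 24.7 for 15 tags and 4.12 to 17.1 for 9. A Flag-USP39 peak of 6 tags farther upstream carried the symbol DDX5 alone.

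MIR205HG is the host transcript of MIR205, a microRNA of epithelia. Its start had a Flag-USP39 peak of 15 tags at chr1:209601879-209603415, fold 33.0, which spans -288 to 1248 bp of the start. The POLR2A peak held 13 tags at chr1:209602241-209603248, fold 34.0, and spans 74 to 1081 bp. Flag-USP39 had a second peak of 12 tags, chr1:209603709-209605057, upstream of the MIR205 hairpin, and POLR2A had none listed there.

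At the next host transcript POLR2A alone had peaks. DNM3OS, the antisense transcript that hosts MIR199A2 and MIR214, had POLR2A peaks of 13, 9 and 9 tags and no Flag-USP39 peak. MIR3120 lies within its span on the other strand, so DNM3OS is not its host. The peak of 13 tags, chr1:172113399-172113997, spans -22 to 576 bp of the DNM3OS start and covers the MIR199A2 hairpin; the third covers MIR214. The nearest Flag-USP39 peak centre was 389120 bp from it. Flag-USP39 signal below 3 tags could not be listed.

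The 300 bases around both starts are shown because peaks lie at or beside them, from 250 before to 50 after the RefSeq start in GRCh38.p14, with any motif found in capitals. The motifs searched on both strands were the TATA box TATAAA, the CCAAT box CCAAT and the GC box GGGCGG.
MIR205HG, chr1:209428570-209428869, plus strand: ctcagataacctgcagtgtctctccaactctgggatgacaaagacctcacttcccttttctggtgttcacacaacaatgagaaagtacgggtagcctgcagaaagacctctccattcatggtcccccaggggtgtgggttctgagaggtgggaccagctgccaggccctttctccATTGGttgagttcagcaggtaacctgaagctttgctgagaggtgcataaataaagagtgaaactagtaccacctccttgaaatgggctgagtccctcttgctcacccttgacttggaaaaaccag
DNM3OS, chr1:172144786-172145085, minus strand: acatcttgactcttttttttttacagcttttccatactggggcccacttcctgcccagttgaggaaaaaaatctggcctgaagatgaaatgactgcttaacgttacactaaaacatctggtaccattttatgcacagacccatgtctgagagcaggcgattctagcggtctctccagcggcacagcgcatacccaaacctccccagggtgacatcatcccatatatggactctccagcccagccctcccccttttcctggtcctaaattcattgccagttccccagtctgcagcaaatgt

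The MIR205HG window holds CCAAT on its reverse strand, with its first base at -75 from the start, and no other match. The DNM3OS window holds none of the 3. Of 35116 RefSeq promoters of this length 34.6% hold CCAAT, 11.5% TATAAA and 45.0% GGGCGG. A match is a string of letters and no measure of binding.

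Another gene shared the promoter-class peak at 6 of 66 Flag-USP39 (9.09%) and 52 of 168 POLR2A microRNA peaks (31.0%). The share of all promoter-class peaks with several gene symbols was not counted, so the difference may belong to the lists as a whole. The POLR2A peaks included the bidirectional histone pair HIST1H2BK and HIST1H2AH with MIR3143 (32 tags), the transcription factor JUND with MIR3188 (15 tags), the stress factor DDIT3 with MIR616 (12 tags), WSB1 with MIR4522 (11 tags), WASH7P with MIR1302 (10 tags), and the splicing factor SRSF2 with MIR636 (10 tags). These peaks lie at or near the start of a protein-coding gene or pseudogene as well as near the hairpin. Their tags cannot be divided between the 2. The Flag-USP39 peaks of that kind, at CALR, PILRB, BCL9L, RBPMS2, SPACA6 and FLVCR2, held 3 to 5 tags. Of the 52 POLR2A peaks 2 overlapped a Flag-USP39 peak (3.85%, 1.06 to 13.0), near the 5.74% of all POLR2A promoter-class peaks. Of the 116 POLR2A microRNA peaks with no other symbol 20 did (17.2%, 11.4 to 25.1).

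The nearest start was that of a microRNA at 63 of 66 Flag-USP39 and 130 of 168 POLR2A peaks. RefSeq places a microRNA of 51 Flag-USP39 and 125 POLR2A peaks inside another gene. Counted by symbol, 136 of 216 lie in a protein-coding gene, 32 in another gene and 39 between genes. Strand was not considered in these counts, so a gene on the strand opposite to the hairpin is included.

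**Figure D4:**
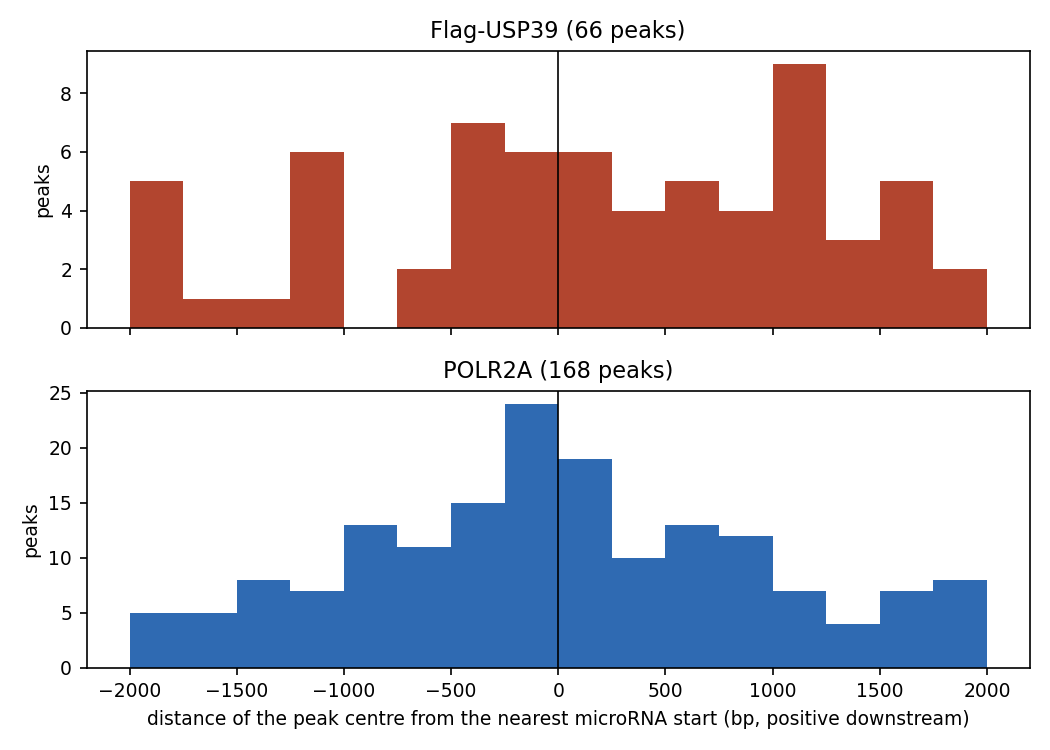
Number of peaks (y axis) by distance of the peak centre from the nearest microRNA start in bp (x axis, positive downstream, bins of 250 bp), with 66 Flag-USP39 peaks above and 168 POLR2A peaks below. Between -250 and 250 bp lay 12 Flag-USP39 and 43 POLR2A centres.

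Centres lay within 500 bp of a microRNA start at 23 of 66 Flag-USP39 peaks (34.8%) and 68 of 168 POLR2A peaks (40.5%). For all promoter-class peaks, by the nearest start of any gene, the shares were 32.3% and 66.2%. The hairpin was covered by 16 Flag-USP39 and 55 POLR2A peaks. At the bound of the promoter class, with upstream distances negative, the farthest member was MIR5047 at -1998 bp with 11 tags in the Flag-USP39 list and MIR4312 at 1999 bp with 4 tags in the POLR2A list. Just outside lay MIR4680 at -2080 bp with 3 Flag-USP39 tags and MIR671 at -2027 bp with 4 POLR2A tags.

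Imprinted microRNA genes on chromosome 14, a large cluster expressed from 1 parental copy, were met in both lists. A Flag-USP39 peak of 7 tags and a POLR2A peak of 6, chr14:101504579-101505054 together, carried MIR376A2, MIR376C and MIR654. A Flag-USP39 peak of 6 tags at chr14:101520895-101521441 carried MIR134, MIR323B, MIR382, MIR485 and MIR668, and no POLR2A promoter-class peak was listed there. The other Flag-USP39-only loci of several symbols had 3 to 11 tags: MIR98 with MIRLET7F2 inside HUWE1, MIR5681A with MIR5681B, MIR3926-1 with MIR3926-2, and the copied MIR6862, MIR1184 and MIR1244 symbols.

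POLR2A-only loci of several symbols included MIR3190 with MIR3191 in BBC3, a proapoptotic gene (9, 5 and 4 tags), MIR423 with MIR3184 at NSRP1 (4), MIR210 with MIR210HG (4), MIR6864 with MIR6865 (4), MIR3160-1 with MIR3160-2 (4), and copied symbols of MIR1302, MIR3670, MIR4444, MIR1233, MIR6511A, MIR6770 and MIR6859 with 4 to 10 tags. Only member peaks count here: near the MIR1233 peak lay a Flag-USP39 peak of 5 tags in an intron of GOLGA8A. MIR612, in the paraspeckle transcript NEAT1, had 3 POLR2A peaks of 4 to 7 tags.

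Of 65 microRNA genes in 12 families known from cancer and development, 2 had a Flag-USP39 promoter-class peak, beside 3.82% of all RefSeq microRNA genes, and 4 a POLR2A one, beside 8.26%. These counts are near the shares over all microRNA genes. The genes were MIR98 and MIRLET7F2, on a Flag-USP39 peak of 3 tags, and for POLR2A MIRLET7I (5 tags), MIR21 (6), MIR199A2 (13) and MIR214 (9). MIR21, an oncogenic microRNA at the end of VMP1, had its peak at chr17:57918664-57919283. The miR-17-92, miR-200, miR-34, miR-15/16, miR-29, miR-23/27/24, miR-30, miR-221 and miR-182 families had no promoter-class peak of either antibody. Of 41 microRNA genes known from particular cell types, 1 had a Flag-USP39 promoter-class peak, beside the same 3.82%, and 1 a POLR2A one, beside 8.26%. They were MIR205, 1 of 7 genes of epithelia, with 12 Flag-USP39 tags, and MIR150, 1 of 6 genes of blood, with 4 POLR2A tags. The other genes of epithelia and blood, MIR122 of liver and the muscle, neuron and pluripotency genes had none. A peak does not measure expression, so these genes do not test the cell line's label.

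Of 21 genes of microRNA processing and action, 2 had a Flag-USP39 promoter-class peak, beside 2.31% of protein-coding genes, and 5 a POLR2A one, beside 10.3%. The Flag-USP39 genes were the helicases DDX5 (6 tags) and DDX17 (4). The POLR2A genes were DDX17 (5 tags), the Microprocessor subunit DGCR8 (4), the DICER1 partner PRKRA (4), the silencing scaffold TNRC6B (4) and the let-7 inhibitor LIN28B (4).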

How the data were processed

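ChIP-seq libraries of A2780 cells were compared by antibody as the labels give it, with 1 library each for Flag-USP39, POLR2A and input, so no test was made. The submitters' processing notes name Bowtie2 (2.2.4), MACS (1.4.3) and build hg19. Total reads and duplicate handling are not stated, so depth beyond the tags in peaks (62327 and 86228) is unknown. Each peak table sets 1 antibody against the shared input. Tags are deposited as whole counts per peak, per the file headers. The deposited score is minus 10 times log10 of the p-value. Fold enrichment was deposited as a ratio on a linear scale, and the deposited FDR is in percent, at most 0.01% and 0.25% at the microRNA peaks, per the file headers.

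A peak is repeated for each transcript and was counted once. Overlap means at least 1 bp. Intervals are 95% Wilson intervals for shares and exact Poisson intervals for tags, and cover counting error only. Hosts come from a RefSeq table of GRCh38.p14, used for names and for containment without regard to strand. Overlap code was tested on simulated intervals. Python 3.11.15, pandas 2.3.3, numpy 2.4.6 and scipy 1.17.1 were used. Genes named are the 10 peaks with the most tags per antibody, overlapping pairs, loci of several symbols or both antibodies, listed families and markers, and the bounds of the class; host genes sharing a peak, MIR612 and other names were chosen after their values were seen. The members and lists were chosen with earlier results of these data known. Some of the genes that this rule names are not reported here.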

Additional observations from a re-analysis of the deposited data

How the results depend on the processing

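No paired analysis was possible because each group has 1 library. As reported, the Flag-USP39 list gave 66 peaks, 80 symbols, a median of 4 tags and an overlap of 30.3%, and the POLR2A list 168, 166, 5 and 13.1%. Requiring a p-value of at most 1e-10 gave 11 Flag-USP39 peaks, 17 symbols, a median of 15 tags and an overlap of 45.5%, and 23 POLR2A peaks, 31 symbols, a median of 15 and 26.1%. Requiring at least 6 tags gave 24, 34, 11 and 62.5% for Flag-USP39, and 71, 72, 10 and 23.9% for POLR2A. A peak centre within 1 kb of the microRNA start gave 34, 42, 5.5 and 44.1% for Flag-USP39. A p-value of at most 1e-05 in both lists left 96 POLR2A peaks and 104 symbols. These settings keep fewer peaks by construction. The other 38 values stayed within 1.5 times or within their interval: host transcripts left out, the nearest start required, stricter overlap or centres within 1 kb, and, chosen after seeing the data, copied start sites left out. With 3 or 4 tags as the least a listed peak can hold, a site missing from a list may still have signal.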
